A study of Homo sapiens with 6 samples.

Results

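Epithelial-mesenchymal transition (EMT) drivers and markers were followed in MDA-MB-231, a human line from triple-negative breast carcinoma whose cells are spindle-shaped and mesenchymal-like. The genes were chosen by symbol: the marker VIM, the drivers ZEB1, ZEB2, SNAI1, SNAI2 and TWIST1, the cadherins CDH1 and CDH2, the receptor gene AXL and the TGF-β-induced gene TGFBI. Of these 10 genes, 7 had a probe set in the annotation table used here, out of 14884 named genes in all, and CDH1, CDH2 and TGFBI were not analysed here. Whole-transcript GeneChip arrays gave the RNA levels of cells with a knockout of NR1D1 (NR1D1 KO) and of control cells, with 3 arrays per group, and every culture of either group had received 200 µM hydrogen peroxide for 72 h. NR1D1 encodes REV-ERBα, a heme-binding nuclear receptor that represses transcription. Arrays are titled as biological replicates, but no label says whether they came from separate cultures or how many knockout clones were used. The p-values therefore reflect the scatter of these arrays alone, and that scatter may be technical. With no array of untreated cells, a difference in the response to peroxide and a difference present before it cannot be told apart. The labels do not say how the knockout was made or what the control cells carry. NR1D1 itself was not analysed here, so the knockout was not checked from its transcript.

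In EMT, epithelial cells lose the adherens and tight junctions that hold them in a sheet and take on a motile form with a vimentin cytoskeleton and a fibronectin-rich matrix. Transcription factors of the SNAI, ZEB and TWIST families bind E-box elements in epithelial genes and repress them, TGF-β signalling through SMAD proteins induces these factors, and microRNAs of the miR-200 family hold ZEB1 and ZEB2 down. Hybrid states, in which epithelial and mesenchymal genes are expressed together, are well known in carcinoma cells.

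The 6 arrays had medians between 5.18 and 5.22 on the log2 scale of the deposited values, and arrays correlated at 0.9850 to 0.9879 within groups and at 0.9803 to 0.9835 between groups. In the fit over all named genes, 1412 genes were called at an adjusted p under 0.05 (limma, Benjamini-Hochberg), 706 higher and 706 lower in NR1D1 KO, which is 9.49% of those tested. Probe sets differ in brightness for the same amount of RNA, so the levels of different genes were not set against each other, and no detection calls were at hand. The estrogen and progesterone receptor genes ESR1 and PGR, which define the line by their lack, measured 4.93 to 5.43 and 4.02 to 4.07 in NR1D1 KO, against 5.14 to 5.27 and 3.96 to 4.01 in control, values that cannot be called present or absent. Of markers of other cell types, 1 of 3 leukocyte genes passed the test, with 0 of 3 fibroblast genes and 0 of 2 basal epithelial genes. The leukocyte gene was CD68, also a lysosomal protein gene and named after its values were seen (1.37-fold lower, not called without control replicate 1, 2 or 3). Mean log2 levels of these lists lay between 6.33 and 6.58 in NR1D1 KO and 6.59 and 6.72 in control for leukocyte genes, 4.46 and 4.67 in NR1D1 KO and 4.46 and 4.61 in control for fibroblast genes, and 4.92 and 5.05 in NR1D1 KO and 4.91 and 5.02 in control for basal genes. The part of these markers in the results below was not tested.

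Among the measured EMT genes, VIM was modestly higher in NR1D1 KO and none of the 5 driver genes passed the test. VIM rose 1.27-fold, AXL measured 1.16-fold higher without passing the threshold, and ZEB1, ZEB2, SNAI1, SNAI2 and TWIST1 each differed by at most 0.075 on the log2 scale. So 1 of 7 genes was called, or 14.3%, where 9.49% of all genes were, 4.74% of them in the direction of a rise. With 1 call in so few genes, this share is near the background. The median log2 change of the 7 genes was -0.020, against 0.0039 over all genes.

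**Figure D1:**
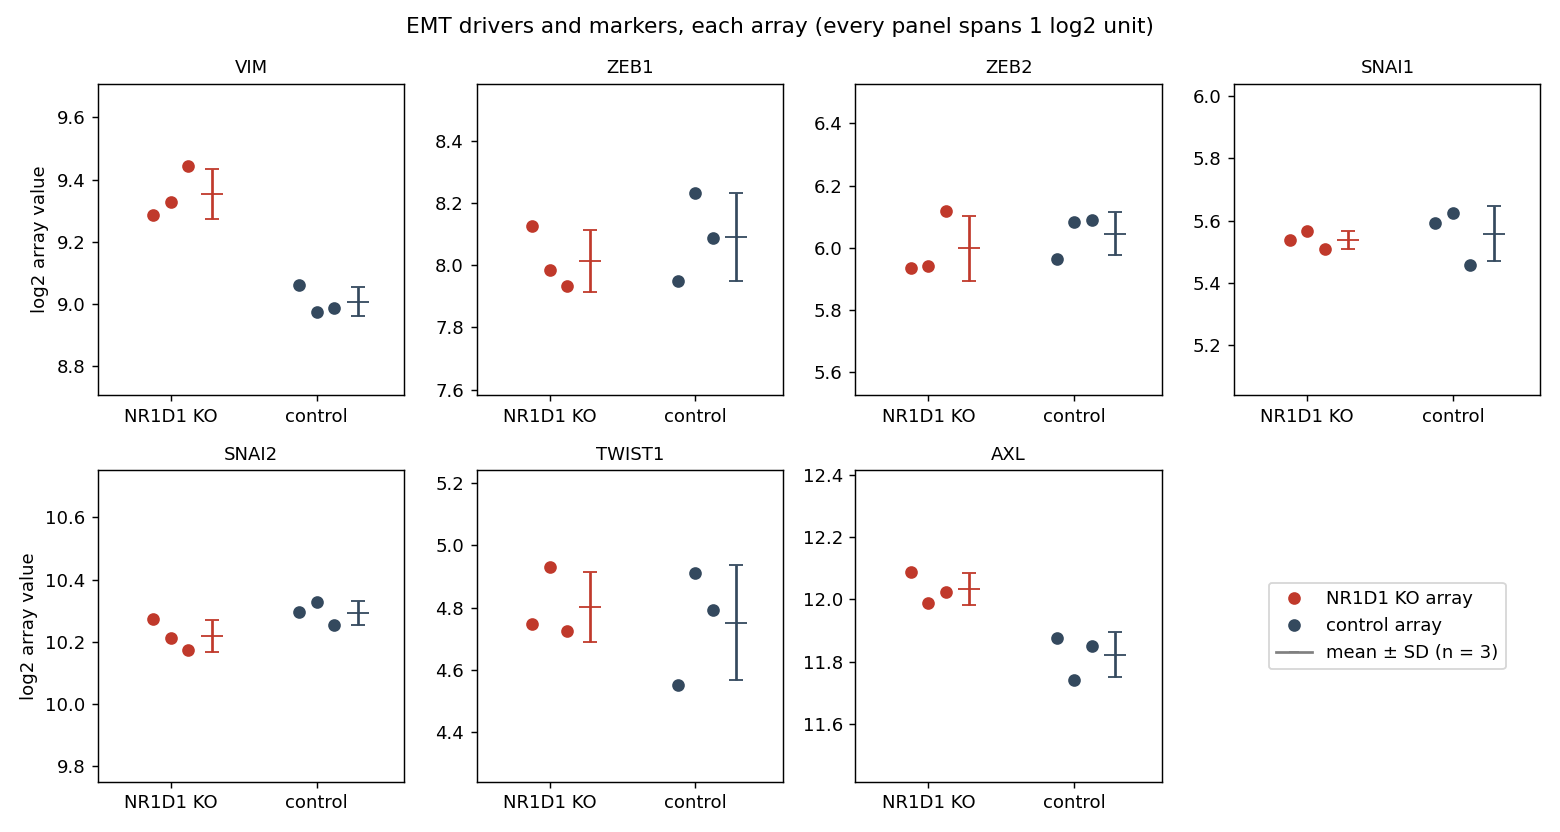
Log2 array value of each measured EMT gene on every array, NR1D1 KO (left) and control (right), with the mean ± SD of 3 arrays beside the points. Each panel spans 1 log2 unit, so distances compare between panels while levels do not. The groups separate for VIM and AXL, as they do for 28.7% of all genes, and overlap for the 5 driver genes.

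VIM encodes vimentin, the intermediate filament protein of mesenchymal cells. It had log2 values of 9.29, 9.33 and 9.44 in NR1D1 KO, against 9.06, 8.97 and 8.99 in control. All knockout arrays lay above all control arrays, as was the case for 15.1% of all genes, and for 28.7% the groups did not overlap in either direction. The means were 9.35 ± 0.080 in NR1D1 KO and 9.01 ± 0.048 in control (SD, n = 3 each), a log2 change of 0.34 with a 95% interval of 0.16 to 0.53 and a limma adjusted p of 0.0337. In RNA of a whole culture, a change in the share of cells of one kind and a change in RNA per cell cannot be told apart. The call of VIM was lost when any of 5 arrays was left out. Without control replicate 1, 2 or 3 the adjusted p was 0.0762, 0.105 and 0.117, without knockout replicate 2 or 3 it was 0.0848 and 0.0953, and without knockout replicate 1 it was 0.0482, while the log2 change lay between 0.30 and 0.38 in these fits. It was also lost when all probe sets, named or not, were tested together (adjusted p = 0.126).

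The annotation gives VIM 3 probe sets, and the brightest, 16712272, supplied the values above. The others were looked at singly after the data were seen. On probe set 16712274 the values were 9.29, 9.10 and 9.24 in NR1D1 KO, against 8.90, 8.86 and 8.88 in control. Probe set 16702767 read 9.16, 9.02 and 9.02 in NR1D1 KO, against 8.70, 8.82 and 8.75 in control. The knockout arrays were above the control arrays on each of them. The log2 changes were 0.34, 0.33 and 0.31, with limma adjusted p of 0.0350, 0.0446 and 0.0532 when every named probe set was tested. All 3 are annotated to VIM and were read on the same RNA, so they are not independent measurements. Which transcript or strand each one reads was not checked. VIM lies on chromosome 10, and of its 20 nearest measured coding genes 10 had a log2 change above 0, with 3 called higher, 0 called lower and a median of -0.00018. Over all genes 4.74% were called higher.

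**Figure D2:**
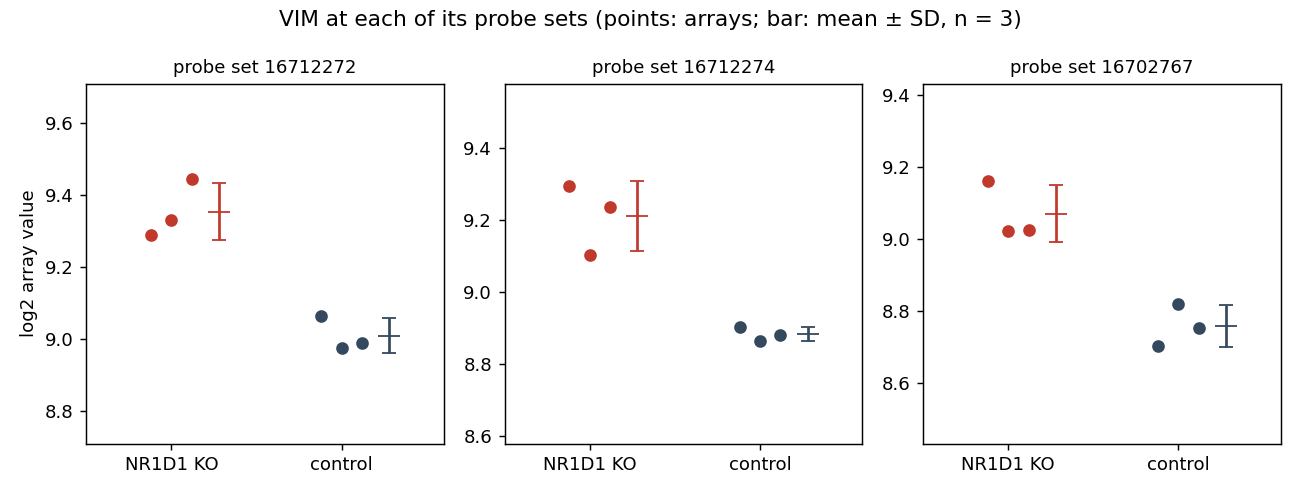
Log2 array value of VIM at its 3 probe sets, NR1D1 KO (left) and control (right) in each panel, with the mean ± SD of 3 arrays beside the points. The knockout arrays lie above the control arrays in every panel, by 0.34, 0.33 and 0.31 on the log2 scale from left to right.

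AXL encodes a receptor tyrosine kinase of the TAM family that is often raised in mesenchymal carcinoma cells. Its log2 values were 12.09, 11.99 and 12.02 in NR1D1 KO, against 11.88, 11.74 and 11.85 in control. The groups did not overlap, with the knockout arrays higher, as was the case for 15.1% of all genes. The means were 12.03 ± 0.050 in NR1D1 KO and 11.82 ± 0.073 in control (SD, n = 3 each), a log2 difference of 0.21 with a 95% interval of 0.027 to 0.39. This missed the threshold over all genes (limma adjusted p = 0.158) and passed it under a prior with trend and robust settings (adjusted p = 0.0226). Of 20 neighbouring coding genes on chromosome 19, 14 had a log2 change above 0, with 1 called higher, 0 lower and a median of 0.085.

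VIM and AXL were the 2 of 7 members whose groups did not overlap, which is near the 28.7% of all genes. The stretches before their transcription starts are shown for that reason. They are the 250 bases upstream of the first start that RefSeq gives for each gene (build GRCh38.p14, plus strand), and capitals mark CAGGTG, the E-box core bound by SNAI and ZEB factors, searched on both strands.
VIM, chr10:17227991-17228240: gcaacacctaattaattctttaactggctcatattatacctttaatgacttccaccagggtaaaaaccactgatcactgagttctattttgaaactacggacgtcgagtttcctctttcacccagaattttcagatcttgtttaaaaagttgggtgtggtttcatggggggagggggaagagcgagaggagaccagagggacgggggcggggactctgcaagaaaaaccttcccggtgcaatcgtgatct
AXL, chr19:41218973-41219222: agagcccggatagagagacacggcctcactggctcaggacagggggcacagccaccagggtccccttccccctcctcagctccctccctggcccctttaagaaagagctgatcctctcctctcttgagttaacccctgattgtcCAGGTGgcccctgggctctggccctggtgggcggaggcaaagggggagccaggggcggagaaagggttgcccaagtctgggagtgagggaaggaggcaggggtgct
The VIM stretch holds 46% G and C and no CAGGTG, and the AXL stretch holds 64.4% G and C and 1 copy. RefSeq windows from 250 bases before to 50 after a start were at hand for 4 of the 7 genes, 11 windows in all. CAGGTG, or its reverse complement CACCTG, was in 3 of them, 2 of the 7 ZEB1 windows and 1 of AXL, and in 20.6% of 35116 such windows of all genes. AGGTCA, the half-site recognised by REV-ERBα, or TGACCT on the other strand, was in 0 of the 11 windows and in 13.8% of all. These counts are of letters in short windows and say nothing of binding.

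The ZEB genes encode zinc finger and homeobox repressors of epithelial genes. ZEB1 read 8.13, 7.98 and 7.93 in NR1D1 KO, against 7.95, 8.23 and 8.09 in control, and the groups overlapped. Its log2 difference was -0.075 with a 95% interval of -0.30 to 0.15 (limma adjusted p = 0.723). ZEB2 read 5.94, 5.94 and 6.12 in NR1D1 KO, against 5.97, 6.08 and 6.09 in control, again with overlap. The log2 difference of ZEB2 was -0.047, with an interval of -0.25 to 0.15 (limma adjusted p = 0.816).

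SNAI1 and SNAI2 encode the zinc finger repressors Snail and Slug. SNAI1 was at 5.54, 5.57 and 5.51 in NR1D1 KO, against 5.59, 5.62 and 5.46 in control, so that all knockout values fell inside the control range. The log2 difference was -0.020 with a 95% interval of -0.21 to 0.17 (limma adjusted p = 0.922). SNAI2 was at 10.27, 10.21 and 10.17 in NR1D1 KO, against 10.30, 10.33 and 10.25 in control, where only the highest knockout array reached into the control range. Its log2 difference was -0.073, with an interval of -0.25 to 0.10 (limma adjusted p = 0.639).

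TWIST1, which encodes a basic helix-loop-helix factor, read 4.75, 4.93 and 4.73 in NR1D1 KO, against 4.55, 4.91 and 4.79 in control. The groups overlapped, and the control arrays spread more widely (SD 0.184) than the knockout arrays (SD 0.113). The log2 difference was 0.050, with a 95% interval of -0.21 to 0.31 (limma adjusted p = 0.850). Across the 5 driver genes the intervals reached at most 1.24-fold in either direction. Smaller differences could not be seen with 3 arrays a group, and a miss does not show that the genes were unchanged. TWIST1 is among the dimmest 25% of genes, and SNAI1 and ZEB2 are among the dimmest 50%. Whether the values of TWIST1, SNAI1 and ZEB2 lie above background was not assessed. Their intervals therefore bound the change in array value and need not bound the change in RNA.

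**Figure D3:**
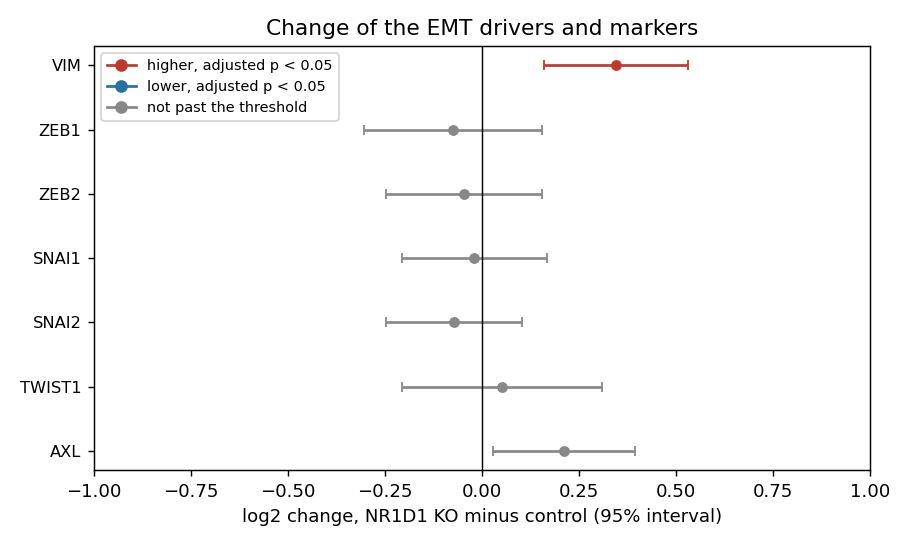
Log2 change (NR1D1 KO minus control) of the 7 measured EMT genes with its 95% interval from limma, red where the adjusted p was under 0.05 and grey where it was not. VIM stands at 0.34, AXL at 0.21, and the intervals of the 5 drivers all include 0.

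Mesenchymal genes other than VIM moved in both directions. Of 15 measured genes 3 rose and 2 fell, or 33.3% called against 9.49% of all genes, with a median log2 change of 0.024. That background is not matched to the level of these genes, and the list was chosen with earlier results known. TNC, which encodes the matrix glycoprotein tenascin-C, read 7.94, 8.05 and 8.22 in NR1D1 KO, against 6.52, 6.49 and 6.51 in control, with the knockout arrays far above (2.96-fold, limma adjusted p = 8.1e-05). FN1, the fibronectin gene, read 11.18, 11.40 and 11.31 in NR1D1 KO, against 10.54, 10.43 and 10.41 in control, again without overlap (1.78-fold, limma adjusted p = 0.00102). CNN2, an actin-binding calponin gene chosen after its values were seen, rose 1.24-fold. MMP14, the gene of a membrane-anchored matrix protease, fell (9.85, 9.74 and 9.61 in NR1D1 KO, against 10.18, 10.08 and 10.22 in control), as did the hyaluronan receptor gene CD44 (9.56, 9.57 and 9.40 in NR1D1 KO, against 9.86, 9.85 and 9.88 in control), by 0.43 and 0.35 on the log2 scale. TNC and FN1 were called whichever array was left out. The count of 2 falls became 0 with control replicate 1 or 3, or knockout replicate 2 or 3, left out, and 1 with control replicate 2 or knockout replicate 1 left out. CNN2 lost its call without any 1 of the 6 arrays, and the second probe set of CNN2 measured 1.15-fold higher and was not called. Of the 20 neighbours of TNC on chromosome 9, 6 were called higher and 1 lower, where 4.74% of all genes were called in each direction. Of these neighbours 16 measured above 0, with a median log2 change of 0.20, so TNC lies among jointly higher genes. Whether its rise is tied to theirs was not tested. Of the 20 neighbours of FN1 on chromosome 2, 16 also measured above 0, with 2 called higher, 0 lower and a median of 0.072.

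Epithelial genes also moved in both directions, with more rises than falls. Of 27 measured genes 8 rose and 2 fell, or 37.0% called where 9.49% of all genes were, with a median log2 change of 0.015. Over the whole list 14 genes measured above 0 and 13 below. The list was chosen with earlier results of these data known, and the background is not matched for level, so its share is no test. The largest rises included genes of the desmosome, the cadherin genes DSG2 (3.63-fold) and DSC2 (2.10-fold) and the plaque gene DSP, which encodes desmoplakin (2.42-fold). DSG2 read 10.09, 10.09 and 10.10 in NR1D1 KO, against 8.16, 8.30 and 8.23 in control. DSP read 9.55, 9.60 and 9.52 in NR1D1 KO, against 8.22, 8.37 and 8.24 in control, and DSC2 5.32, 5.31 and 5.09 in NR1D1 KO, against 4.39, 4.01 and 4.12 in control. For all 3 genes the knockout arrays lay above the control arrays by more than the spread within either group (limma adjusted p of 2.74e-05, 9.43e-05 and 0.00121). The largest fall was that of the tight junction gene CLDN1, the claudin-1 gene, which read 5.53, 5.28 and 5.41 in NR1D1 KO, against 6.43, 6.49 and 6.60 in control (2.15-fold lower, limma adjusted p = 0.000319). Junction genes thus went both ways, and the other fall was JUP, the plakoglobin gene shared by desmosomes and adherens junctions (1.25-fold lower, chosen after its values were seen).

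Rises of 1.28 to 2.05-fold made up the rest of the epithelial calls and are likewise named after their values were seen. They were CD24, a surface glycoprotein gene (2.05-fold), the keratin genes KRT19 (1.33-fold) and KRT18 (1.28-fold), EPCAM, an epithelial adhesion gene (1.32-fold), and TJP1, a tight junction scaffold gene (1.31-fold). KRT18, KRT19 and CD24 have near-identical pseudogenes, which makes their values uncertain, and a second probe set of KRT18 measured 1.24-fold higher without being called. Of genes whose products maintain the epithelial state, GRHL1, GRHL2, OVOL1, OVOL2, ESRP1 and ESRP2 did not pass the test. Examples are GRHL2, with a log2 difference of -0.025 (limma adjusted p = 0.927), and the splicing regulator ESRP1, with -0.089 (limma adjusted p = 0.779). These 6 were also named after their values were seen. GRHL1, GRHL2 and ESRP1 are among the dimmest 25% of genes, and OVOL1 and OVOL2 are among the dimmest 50%. Whether the values of these dim genes lie above background was not assessed, so their misses do not show that their RNA was unchanged. DSG2, DSP, DSC2, CD24 and CLDN1 were called whichever array was left out. DSC2 and CD24 are among the dimmest 25% of genes, and without those genes 6 rises were counted. Only 4 of the rises were counted when any control replicate, or knockout replicate 2, was left out, and JUP and KRT18 were lost without any 1 of the 6 arrays, so that 1 fall was left. KRT19 was called in no such fit other than that without knockout replicate 1, and the same held for EPCAM, while TJP1 was called only without knockout replicate 3. Without the last of these arrays the tight junction gene OCLN, likewise named after its values were seen, also passed (adjusted p = 0.00642, against 0.0971 with all arrays). The 20 neighbours of DSP on chromosome 6 had 4 genes called higher, 0 lower and a median log2 change of 0.14, where 4.74% of all genes were called higher. Of these neighbours 17 measured above 0, and whether the rise of DSP is tied to theirs was not tested. The 20 neighbours of DSG2 on chromosome 18 had 1 higher, 0 lower and a median of -0.023, with 9 above 0.

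**Figure D4:**
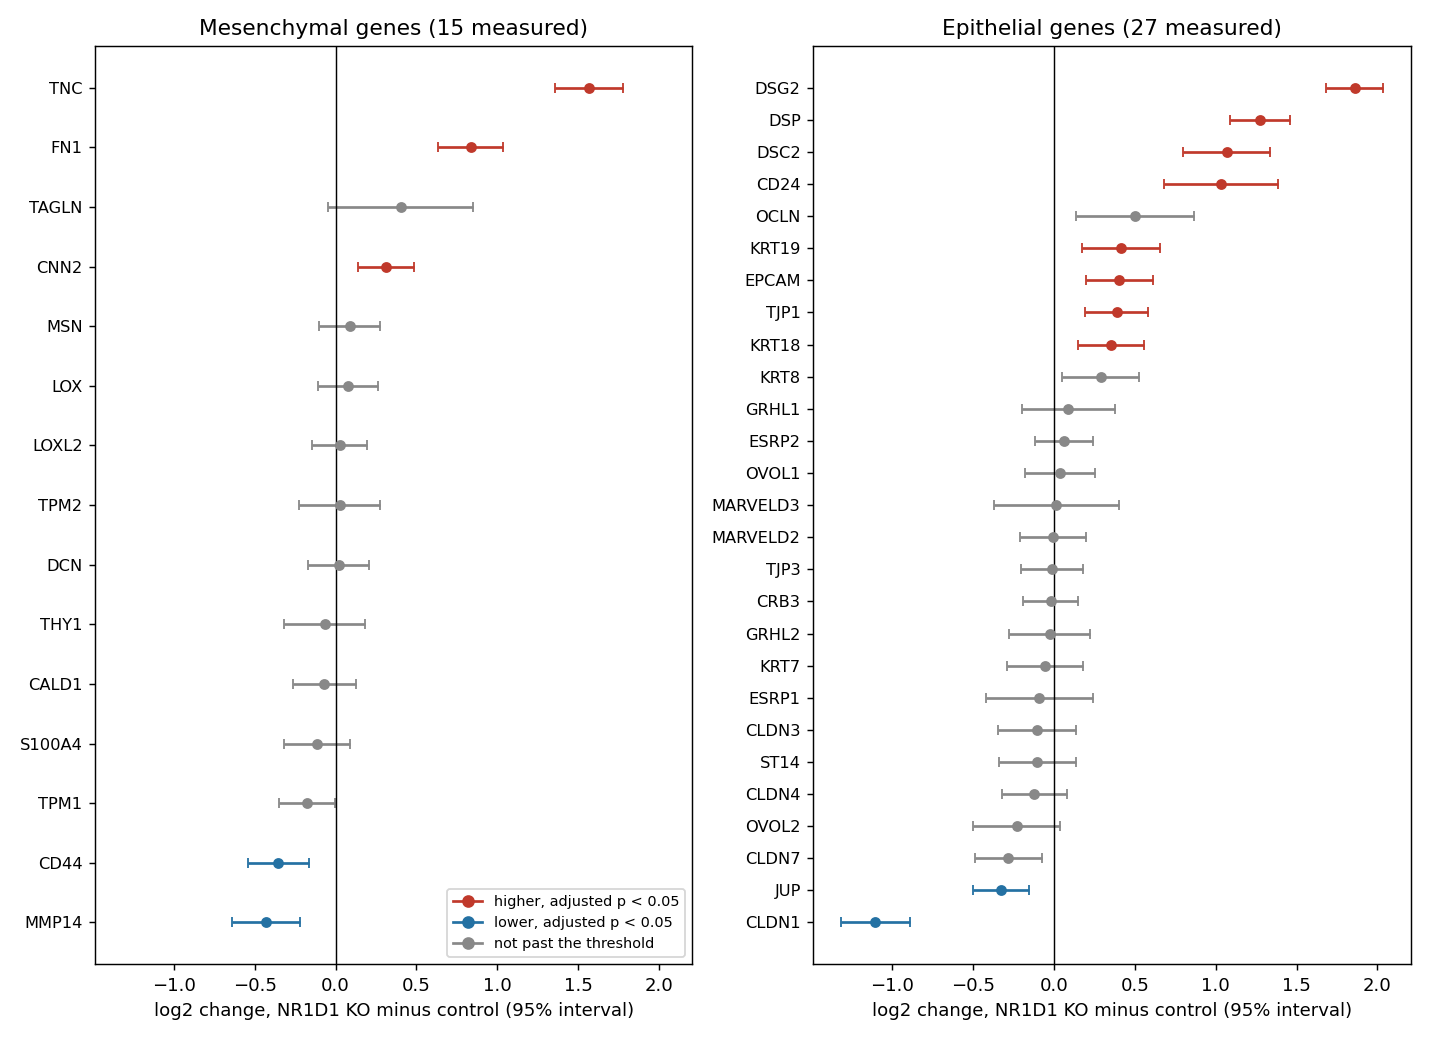
Log2 change (NR1D1 KO minus control) with its 95% interval for 15 mesenchymal genes (left) and 27 epithelial genes (right), red for rises and blue for falls at an adjusted p under 0.05, grey for the rest. Rises and falls are found in both lists, from TNC at 1.56 to MMP14 at -0.43 and from DSG2 at 1.86 to CLDN1 at -1.10.

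Further transcription factors linked to EMT were called as rises or not at all. Of 21 measured genes 5 rose and 0 fell, or 23.8% called against 9.49% of all genes, with 17 above 0 and a median log2 change of 0.068. Here too the background is not matched for level and the list was chosen with earlier results known. SOX4, a factor induced by TGF-β, read 7.18, 7.16 and 7.09 in NR1D1 KO, against 6.38, 6.18 and 6.04 in control, well clear of each other (1.93-fold, limma adjusted p = 0.00107). SOX9, a regulator of stem-like mammary cells, read 10.62, 10.56 and 10.52 in NR1D1 KO, against 10.08, 9.95 and 10.06 in control (1.45-fold, limma adjusted p = 0.00484). RUNX1, a runt-domain factor, rose 1.37-fold, and TEAD1, a DNA-binding partner of YAP, 1.33-fold. TEAD4, of the same family and chosen after its values were seen, rose 1.28-fold. YAP1 itself differed by 0.058 on the log2 scale (limma adjusted p = 0.722) and its relative WWTR1, the TAZ gene, by 0.38 (limma adjusted p = 0.0530), both also named after their values were seen. SOX4 and SOX9 were called whichever array was left out, but the other calls were not. RUNX1 was called without control replicate 1 or knockout replicate 3 and missed in the other such fits, TEAD1 was called without knockout replicate 3 alone, and TEAD4 without knockout replicate 2 alone. Of the 5, only SOX4 and SOX9 were therefore left without knockout replicate 1 or control replicate 2 or 3. Without knockout replicate 1, NOTCH1, a receptor gene of the Notch pathway named after its values were seen, also passed (adjusted p = 0.0434, against 0.189 with all arrays), which brought the rises to 3.

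The TGF-β pathway showed 2 rises and 1 fall among 15 measured genes, or 20% called where 9.49% of all genes were, with a median log2 change of 0.00056. With 3 calls in 15 genes, the share says little against that background. LTBP1, which encodes a protein that tethers latent TGF-β to the matrix, read 7.84, 7.82 and 7.78 in NR1D1 KO, against 7.09, 7.20 and 7.03 in control, with the knockout arrays clearly higher (1.63-fold, limma adjusted p = 0.00148). CCN2, the gene of connective tissue growth factor, read 10.00, 10.26 and 10.20 in NR1D1 KO, against 9.57, 9.49 and 9.41 in control (1.58-fold, limma adjusted p = 0.00450), and its second probe set rose 1.62-fold. BMP4, a bone morphogenetic protein gene, read 10.19, 10.10 and 10.09 in NR1D1 KO, against 10.72, 10.95 and 10.80 in control, with the knockout arrays lower (1.62-fold, limma adjusted p = 0.00249). These 3 calls held whichever array was left out. None of the 5 measured SMAD genes passed the test. SKIL, which encodes a repressor of SMAD-driven transcription and is named after its values were seen, differed by -0.42 (limma adjusted p = 0.0550) and passed without knockout replicate 1 (adjusted p = 0.0457), so that the falls were then 2. TGF-β ligand and receptor genes were not analysed here.

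Of 9 measured genes around AXL, 1 rose and 1 fell, or 22.2% called where 9.49% of all genes were, 4.74% in each direction, so that 1 call each way is near the background. These genes had a median log2 change of -0.023. GAS6, the gene of a ligand of the TAM receptors, read 9.18, 9.23 and 9.45 in NR1D1 KO, against 9.84, 9.79 and 9.73 in control, with every knockout array lower (1.42-fold, limma adjusted p = 0.0144). PROS1, another ligand gene of this list and named after its values were seen, differed by 0.053 on the log2 scale (limma adjusted p = 0.857). MERTK, another TAM receptor gene, read 7.64, 7.68 and 7.63 in NR1D1 KO, against 7.05, 7.37 and 7.13 in control, with every knockout array higher (1.38-fold, limma adjusted p = 0.0236). Leaving out control replicate 1 or knockout replicate 2 ended the call of GAS6 (adjusted p of 0.0584 and 0.0570), leaving 0 falls. That of MERTK ended when control replicate 1 (0.0834) or 3 (0.0893), or knockout replicate 1 (0.0590), 2 (0.0775) or 3 (0.0593), was left out, leaving 0 rises.

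**Figure D5:**
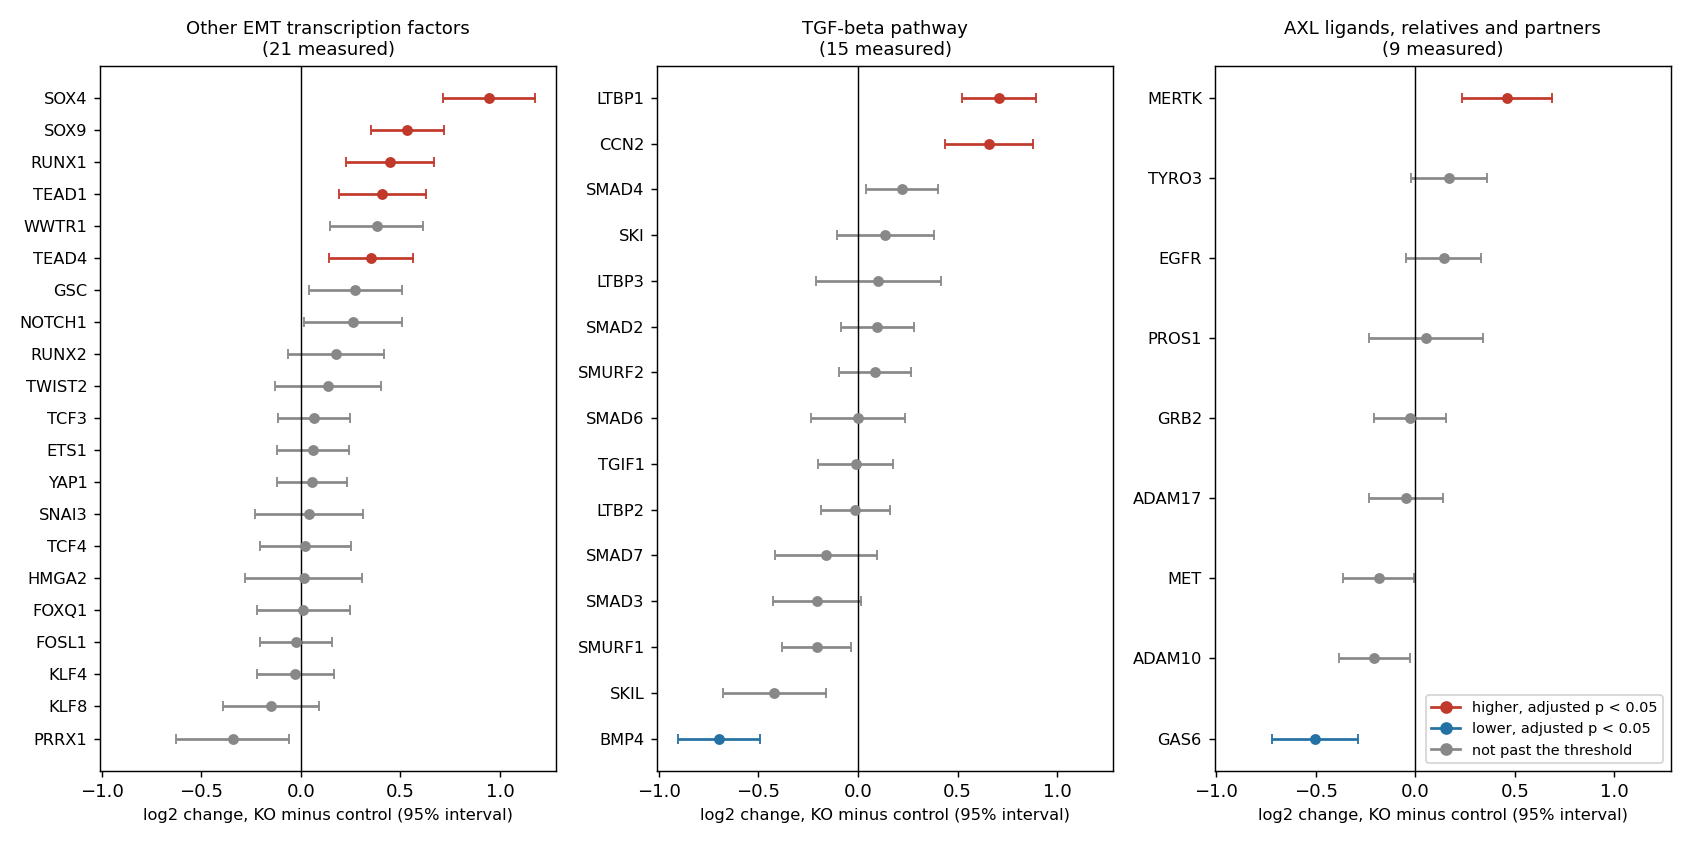
Log2 change (NR1D1 KO minus control) with its 95% interval for 21 further EMT transcription factors (left), 15 genes of the TGF-β pathway (middle) and 9 genes around AXL (right), red for rises and blue for falls at an adjusted p under 0.05. The transcription factors called all lie above 0, up to SOX4 at 0.95, while the other lists hold falls as well, BMP4 at -0.70 and GAS6 at -0.50.

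The microRNA genes of EMT did not pass the test. The mature forms of the miR-200 family are shown because they share seeds that pair with ZEB1 and ZEB2 messages, and the capitals mark the seed, bases 2 to 8 (RefSeq, build GRCh38.p14).
hsa-miR-200b-3p: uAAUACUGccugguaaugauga
hsa-miR-200c-3p: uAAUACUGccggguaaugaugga
hsa-miR-429: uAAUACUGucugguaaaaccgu
hsa-miR-200a-3p: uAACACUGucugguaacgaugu
hsa-miR-141-3p: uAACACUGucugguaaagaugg
The first 3 share one seed and the other two share another. The array probe sets are annotated to the microRNA genes and need not read the mature forms. In NR1D1 KO, MIR200B had log2 values of 4.78, 5.30 and 5.17, against 5.22, 5.18 and 5.15 in control. MIR200C read 4.54, 4.40 and 5.07 in NR1D1 KO, against 4.35, 3.84 and 4.98 in control, the widest spread of the 12 microRNA genes (standard error of the log2 change 0.279). MIR429 read 3.51, 2.99 and 3.07 in NR1D1 KO, against 3.50, 3.45 and 3.23 in control. The groups overlapped for each of these 3 genes.

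Of the second seed group, MIR200A read 3.60, 3.72 and 3.84 in NR1D1 KO, against 3.82, 3.79 and 3.70 in control. MIR141 read 4.87, 5.20 and 5.13 in NR1D1 KO, against 4.95, 5.17 and 5.37 in control, and both overlapped between groups. The adjusted p of the 5 family genes lay between 0.467 and 0.807 in limma, and their log2 differences between -0.20 and 0.28.

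Of all 12 microRNA genes measured, 0 were called by limma, where 2.48% of 1088 microRNA genes were, and 1 had an unadjusted p under 0.05. This was MIR221, whose microRNA shares a seed with miR-222 and is often high in basal-like breast cancer cells.
hsa-miR-221-3p: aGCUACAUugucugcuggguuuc
hsa-miR-222-3p: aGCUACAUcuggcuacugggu
MIR221 read 7.12, 6.82 and 6.97 in NR1D1 KO, against 7.19, 7.25 and 7.26 in control, with every knockout array lower (log2 difference -0.26, limma adjusted p = 0.138). MIR222 read 8.02, 7.52 and 7.25 in NR1D1 KO, against 7.84, 7.79 and 8.01 in control, with overlapping groups (log2 difference -0.29, limma adjusted p = 0.397). The log2 differences of the remaining genes, MIR205, MIR34A, MIR10B, MIR21 and MIR155, lay between -0.11 and 0.14, with adjusted p of at least 0.560.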

How the data were processed

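Per the labels' protocols, total RNA was amplified and biotin-labelled for whole-transcript GeneChip arrays. The authors deposited 1 log2 value per probe set and array, read as log2 from its range. Near-equal quantiles across arrays show normalization between them, while the method, the background correction and the summary over probes were not given in the sources used here. Of 53617 probe sets, 16098 had 1 symbol in the platform annotation, 0 several and 37519 none. The brightest probe set stood for each of 779 genes with several, which left 14884 genes with no filter on level. The 2 groups of 3 arrays entered a linear model (lmFit and eBayes of limma 3.58.1, R 4.3.3, two-sided), adjusted over all genes at a threshold of 0.05. Intervals are 95% intervals from that fit, for single genes. The code was tested on simulated data. Neighbours are the 10 nearest measured coding genes on each side in RefSeq order (GRCh38.p14). The members and the 6 further gene lists were chosen with earlier results of these data known. From each further list the text names up to 4 called genes with the largest change, or 2 with the smallest p. Every microRNA gene is named as well. Other genes of these lists are marked as chosen after their values were seen. For the cell type marker lists only counts and ranges were planned, and CD68, ESR1, PGR, GATA3 and ERBB3 were named outside that plan. Same-numbered arrays did not deviate together (correlations of 0.055, 0.068 and -0.106), so replicate numbers were not taken as pairs. Alternatives were other scalings, filters on dim genes, averaged or separately tested probe sets, other priors, array weights, a replicate block and leaving out each array. Figures used matplotlib 3.10.9 in Python 3.11.15.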

Additional observations from a re-analysis of the deposited data

How the results depend on the processing

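With 3 arrays per group, most counts depended on single arrays, and leaving out any 1 gave 723 to 1049 calls over all genes in place of 1412. Under the same exclusions the calls were 0 to 1 of the EMT members in place of 1, and 13 to 18 in the further lists in place of 25. By list they were 2 to 4 rises of transcription factors in place of 5, 0 to 1 falls of mesenchymal genes in place of 2, 4 to 6 rises and 1 fall of epithelial genes in place of 8 and 2, 1 to 2 falls of the TGF-β pathway in place of 1, and 0 to 1 rises and 0 to 1 falls around AXL in place of 1 each. With the replicate number as a block, 0 members were called (VIM adjusted p = 0.0787) and 16 genes of the further lists, with 3 rises of transcription factors, 0 falls of mesenchymal genes, and 5 rises and 1 fall of epithelial genes. The numbers share no known source, and this fit has fewer residual degrees of freedom. Testing all probe sets together called 0 members and 12 genes of the further lists, with 2 rises of transcription factors, 0 falls of mesenchymal genes, 4 rises and 1 fall of epithelial genes and 0 rises and 0 falls around AXL. It adjusts over more tests. A prior with trend and robust settings called 2 members, VIM and AXL, with 3 falls of the TGF-β pathway and 2 around AXL. Those pathway falls were also 3 without the dimmest 50% of genes, where 1 microRNA gene, MIR221, fell, and 2 without the dimmest 25%, after another quantile normalization or with array weights. The cause of these shifts was not tested. VIM stayed above 0 in every fit, and no called gene of the lists changed sign under any alternative. The median log2 change of the members, -0.020 in the reported fit, was 0.069 without the dimmest 50% of genes, where 4 of the 7 members were left, and -0.050 to 0.013 with single arrays left out. No array gives a detection call, so signal over background was not assessed.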

Other observations

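Vimentin belongs to the intermediate filament proteins, and its relatives other than keratins were also measured, a list added after values were seen. Of 12 listed genes 7 were measured. Of these 2 rose and 0 fell, or 28.6% called where 9.49% of all genes were, with a median log2 change of 0.28 against 0.0039 over all genes. All 7 measured above 0. With 2 calls in so few genes the share says little against that background, which is not matched for level. DES, the desmin gene, counts with its brighter probe set (0.32), while its other probe set read 0.11 with overlapping groups. LMNB1, which encodes lamin B1 of the nuclear lamina, read 9.68, 9.56 and 9.52 in NR1D1 KO, against 8.82, 8.90 and 8.98 in control, with every knockout array higher (1.61-fold, limma adjusted p = 0.00219). LMNA, the gene of lamins A and C, read 8.53, 8.41 and 8.57 in NR1D1 KO, against 8.19, 8.14 and 8.23 in control (1.25-fold, limma adjusted p = 0.0460). LMNB2 differed by 0.28 on the log2 scale (limma adjusted p = 0.0749). LMNB1 was called whichever array was left out, and LMNA in 0 of these 6 fits (adjusted p of 0.0635 to 0.135).

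Luminal epithelial markers went both ways, with 2 of 11 higher, the keratin genes KRT18 and KRT19 given above, and 2 lower, or 36.4% called where 9.49% of all genes were. That background is not matched for level. Both keratin genes were already counted among the epithelial genes, and their values are uncertain because of pseudogenes. GATA3, the luminal transcription factor gene, read 6.78, 6.75 and 6.72 in NR1D1 KO, against 7.60, 7.38 and 7.45 in control, without overlap (1.65-fold lower, limma adjusted p = 0.00166). ERBB3, a receptor gene of the EGF receptor family, was 1.33-fold lower (limma adjusted p = 0.0243). GATA3 and ERBB3 are named after their values were seen. GATA3 was called whichever array was left out. ERBB3 was called only without knockout replicate 1 (adjusted p of 0.0388 to 0.0869 over the 6 fits), as was KRT19, and KRT18 was called in 0 of them.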
